A study of Rattus norvegicus with 6 samples.

Results

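Ubiquitin-conjugating enzymes, the E2 enzymes, carry activated ubiquitin or a ubiquitin-like protein on a catalytic cysteine. They receive it from an activating enzyme (E1) and, with a ligase (E3), pass it to a target protein. Which E2 acts decides much of the kind of chain that is built, and so whether a protein is sent to the proteasome, enters a signalling or repair complex, or is drawn out of the endoplasmic reticulum (ER). The genes described here are all 35 rows of the count table whose symbol starts with Ube2, among 37209 rows in all. Of these 35, 29 passed the filter on low counts and were tested, as were 13390 rows of the whole table.

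RNA was sequenced from wild-type primary bone marrow mesenchymal stem cells (BMSCs) of rat femur, stromal progenitors of bone, cartilage and fat cells. Cells of 3 libraries had been given 3% cigarette smoke extract (CSE), a solution of the soluble components of smoke, for 6 h, and cells of 3 control libraries had been kept in serum-free medium for 6 h. Separate animals or cultures are not stated for the replicates, and p-values therefore cover only the spread among these 6 libraries, which may be technical. Values are counts relative to TMM-scaled library sizes, in CPM, and fold changes are of CSE over control.

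Library totals lay between 19433637 and 22589327 counts with CSE and between 15958621 and 18651194 in the control. All 16 BMSC markers listed were tested, and their summed level lay between 53093 and 54872 CPM with CSE and between 53566 and 56232 CPM in the control. Most of that sum was Col1a1 and Col3a1, and 4 of the 16 were called higher and 8 lower, from Cxcl12 (−2.17 ± 0.06) and Pdgfra (−0.97 ± 0.06) to Cd44 (1.09 ± 0.05), each with an edgeR adjusted p of at most 1.4e-10. Of 10 macrophage or osteoclast markers 9 were tested and Cd163 was listed at 0. Their sum lay between 498 and 532 CPM with CSE and between 574 and 591 CPM in the control. Of these 9 markers 2 were called higher, 4 lower and 3 were not called, from Cd14 at 16.5 CPM with CSE and 45.2 CPM in the control (−1.45 ± 0.08, edgeR adjusted p = 3.2e-11) to Acp5 (0.45 ± 0.08, edgeR adjusted p = 5.4e-05). Both marker counts stand against 36.3% called higher and 37.5% called lower of all tested genes. The part of these markers in the Ube2 values was not tested, and in bulk RNA fewer cells of a type and less RNA per cell cannot be told apart. The endothelial markers summed to at most 4.34 CPM with CSE and 7.59 CPM in the control, and all 4 erythroid markers and 3 of 4 lymphoid markers were at 0 in every library. The erythroid marker Alas2 is on chromosome X, where 567 of 578 named protein-coding genes were at 0 throughout. Its zeros therefore say nothing about expression.

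Most E2 genes that changed were higher with CSE. A rise was called for 16 of the 29 and a fall for 5, and 8 stayed above the threshold of an adjusted p of 0.05. The share that passed, 72.4%, was close to the 73.9% of all tested genes. The share that rose was 55.2%, against 36.3% of all tested genes, and the share that fell was 17.2%, against 37.5%. At least 2-fold rises were seen in 3 members, Ube2o, Ube2g2 and Ube2j1, which is 10.3% against 10.7% of all tested genes, and the only fall of that size, against 14.4% of all tested genes, was that of Ube2c. The median log2 fold change was 0.30 over the 29 members and −0.02 over all tested genes. With libraries scaled by their total counts alone, 13 members rose and 11 fell, and with upper-quartile scaling 14 rose and 9 fell. Of all 13390 tested genes, 3749 rose (28.0%) and 6319 fell (47.2%) with total counts alone. With upper-quartile scaling 4045 of them rose and 5990 fell. The median of all genes shifted by −0.19 and −0.14 in these scalings, which move every gene about alike. The median of the members stood 0.32 above that of all tested genes with TMM, 0.22 above it without control replicate 3, 0.41 without control replicate 1 and 0.22 with no filter on low counts. The count of falls was 3 without CSE replicate 1 and again 3 without control replicate 2. No called member changed its direction in any of the 13 alternatives tried.

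**Figure D1:**
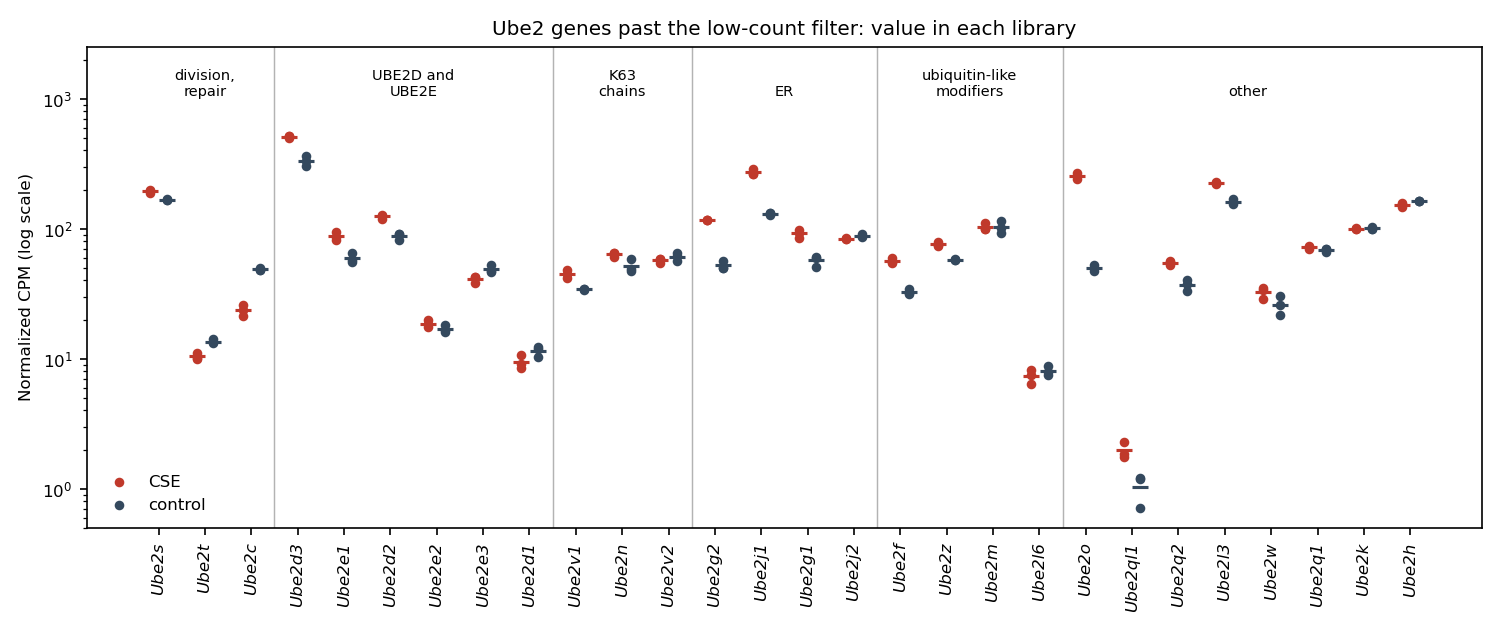
Normalized CPM of the tested Ube2 genes, all but 1 of the 29, on a log axis, with 1 point per library (CSE left, control right) and a bar at the mean, grouped by role. The groups are widest apart for Ube2o, at 241 to 267 CPM in CSE libraries and 47.2 to 52.5 CPM in control libraries.

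**Figure D2:**
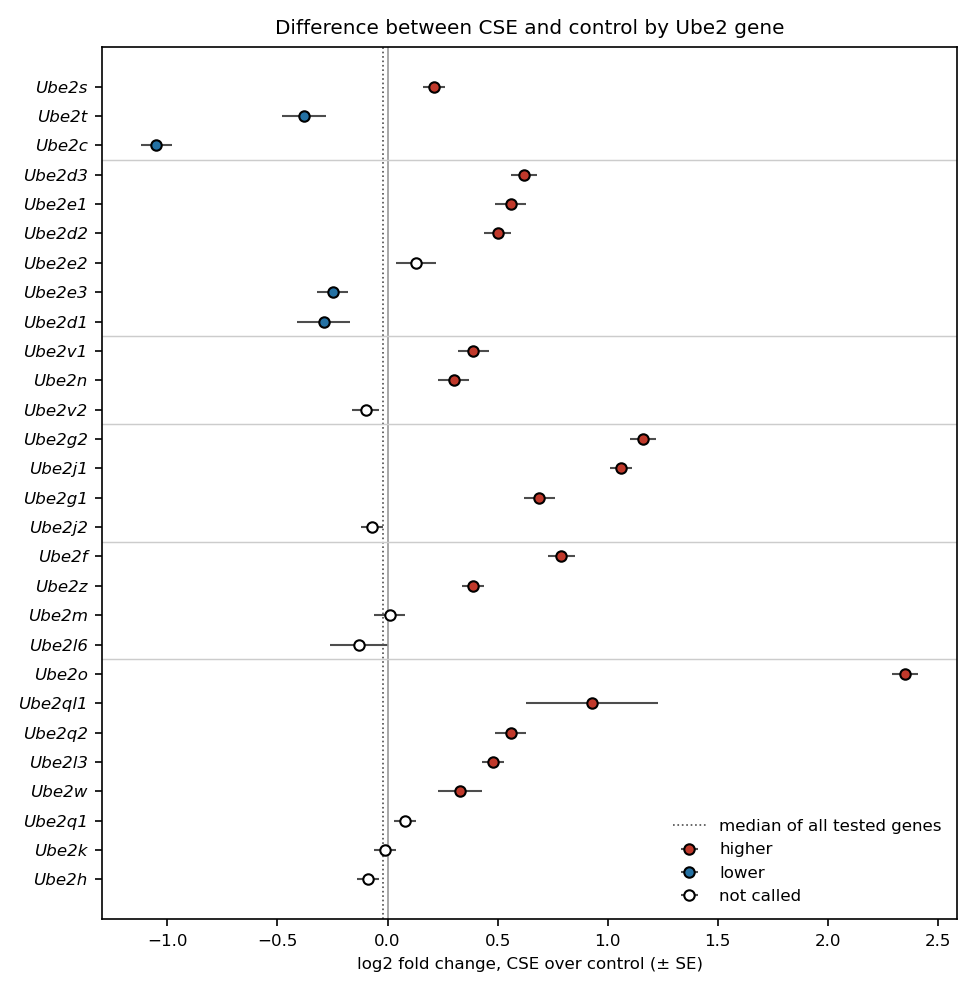
Log2 fold change of CSE over control with its standard error for the same Ube2 genes, in the same grouping, with filled points for genes past the threshold and a dotted line at the median of all tested genes (−0.02). The range runs from −1.05 for Ube2c to 2.35 for Ube2o.

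Read together, the Ube2 rows took between 0.274% and 0.276% of all counts in the CSE libraries and between 0.222% and 0.232% in the control libraries. Their summed level (mean ± SD, n = 3 each) was 2941 ± 19.2 CPM with CSE and 2132 ± 47.0 CPM in the control, and the libraries of the groups did not overlap. Ube2o supplied 25.2% of the difference, Ube2d3 22.1% and Ube2j1 17.4%. Ube2d3 had the most counts of any member in each of the 6 libraries, between 17.1% and 17.6% of Ube2 counts with CSE and between 14.5% and 16.7% in the control. Counts also depend on transcript length, which was not used here, so levels of different members are not ranked.

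The other 6 rows did not pass the filter. Ube2a, Ube2d4, Ube2d4l1, Ube2q2l and Ube2u were listed at 0 in all 6 libraries. RefSeq assigns Ube2a, Ube2d4l1 and Ube2q2l to chromosome X, where 567 of the 578 named protein-coding genes that the table holds were at 0 throughout, so these zeros say nothing about expression. Ube2b had 1 count in CSE replicate 3, 1 count in control replicate 2 and none in the other libraries. In RefSeq its gene overlaps Cdkl3. Ube2a and Ube2b encode the RAD6 enzymes, which monoubiquitinate histone H2B and the sliding clamp PCNA, so the RAD6 group is not covered by these counts.

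The largest change was that of Ube2o, a large enzyme that joins E2 and E3 activity and marks unassembled proteins, such as free ribosomal proteins in maturing red blood cells of mice. Its level was 267, 241 and 254 CPM in the CSE libraries and 49.6, 47.2 and 52.5 CPM in the control libraries. Every CSE library thus stood far above every control library. The rise was 5.10-fold (log2 fold change 2.35 ± 0.06, edgeR adjusted p = 5.5e-16), and the value lay at the percentile 97.1 of all tested genes. It ranged from 2.16 to 2.40 over the alternatives. In RefSeq the genes of Ube2o, Ube2g2 and Ube2g1 overlap other entries, as do those of several other members. The effect of these overlaps on the counts was not tested.

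Of 4 E2 genes grouped under the ER, counting Ube2g1, the paralog of Ube2g2, 3 rose and Ube2j2 did not pass. Of all tested genes 36.3% rose. Ube2j1 and Ube2j2 are anchored in the ER membrane and Ube2g2 is recruited to it, and all 3 serve ER-associated degradation (ERAD), in which misfolded proteins are exported and ubiquitinated, while Ube2g1 is best known in human cells for extending chains on cullin ligase substrates. Ube2j1, which works with the ligase Syvn1, had 264, 263 and 289 CPM with CSE and 128, 133 and 131 CPM in the control. It rose 2.08-fold (1.06 ± 0.05, edgeR adjusted p = 3.7e-12). Ube2g2, which is recruited by ERAD ligases, had 118, 116 and 117 CPM with CSE and 49.9, 49.9 and 56.8 CPM in the control, a rise of 2.24-fold (1.16 ± 0.06, edgeR adjusted p = 7.5e-12). The control library at 56.8 CPM was the highest of its group and still lay far below each CSE library. Ube2g1 had 85.0, 92.9 and 98.3 CPM with CSE and 60.9, 59.3 and 50.9 CPM in the control (0.69 ± 0.07, edgeR adjusted p = 1.0e-07). Ube2j2 had 84.7, 82.8 and 83.8 CPM with CSE and 90.4, 86.2 and 87.9 CPM in the control (−0.07 ± 0.05), which did not pass with TMM (edgeR adjusted p = 0.19). Every CSE library lay below every control library for Ube2j2, and it passed as lower under total counts alone (−0.26, edgeR adjusted p = 1.3e-04) and upper-quartile scaling (−0.21, edgeR adjusted p = 0.0010).

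The promoters of these 4 genes are shown because 2 of them rose at least 2-fold and the paralog of each rose less or did not pass. Each runs from 250 bases before to 50 bases after the gene start in RefSeq, build GRCr8, 5′ to 3′ on the strand of the gene, with capitals at matches to TGACNNNGC, the core of the antioxidant response element bound by NRF2, or to its reverse complement. Ube2g2 lies at chr20:11005011-11005310 on the minus strand and Ube2j1 at chr5:52218557-52218856 on the plus strand. Ube2g1 lies at chr10:57724258-57724557 and Ube2j2 at chr5:171815362-171815661, both on the plus strand.
Ube2g2: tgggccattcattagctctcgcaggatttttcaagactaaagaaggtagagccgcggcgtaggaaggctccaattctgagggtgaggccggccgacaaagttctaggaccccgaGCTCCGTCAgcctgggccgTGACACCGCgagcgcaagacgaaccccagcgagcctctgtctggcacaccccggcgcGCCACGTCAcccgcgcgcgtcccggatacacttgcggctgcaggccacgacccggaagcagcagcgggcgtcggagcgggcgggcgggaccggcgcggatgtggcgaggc
Ube2j1: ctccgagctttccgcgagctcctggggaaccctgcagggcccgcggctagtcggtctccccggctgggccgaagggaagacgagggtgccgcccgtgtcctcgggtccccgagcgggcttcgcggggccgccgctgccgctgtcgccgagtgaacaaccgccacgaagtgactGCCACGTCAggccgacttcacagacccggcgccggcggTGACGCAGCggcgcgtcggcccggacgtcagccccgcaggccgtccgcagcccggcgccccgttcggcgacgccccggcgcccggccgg
Ube2g1: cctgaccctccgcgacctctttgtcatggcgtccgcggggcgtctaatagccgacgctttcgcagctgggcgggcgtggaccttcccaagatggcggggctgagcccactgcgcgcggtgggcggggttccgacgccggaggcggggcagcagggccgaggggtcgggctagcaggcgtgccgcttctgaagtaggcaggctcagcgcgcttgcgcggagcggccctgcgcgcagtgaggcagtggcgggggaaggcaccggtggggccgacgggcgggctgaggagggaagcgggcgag
Ube2j2: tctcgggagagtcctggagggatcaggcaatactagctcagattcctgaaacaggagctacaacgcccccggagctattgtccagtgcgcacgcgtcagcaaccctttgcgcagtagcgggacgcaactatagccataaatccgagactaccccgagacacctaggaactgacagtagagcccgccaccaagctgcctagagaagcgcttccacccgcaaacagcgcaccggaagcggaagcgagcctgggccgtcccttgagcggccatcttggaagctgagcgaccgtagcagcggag

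Ube2g2 held 3 matches, at positions −136, −117 and −60 counted from the gene start, and Ube2j1 held 2, at −77 and −39. Ube2g1 and Ube2j2 held none in this window. At least 2 matches were present in 0.890% of 33469 promoters and 1.13% of the 10249 of tested genes, and at least 3 in 0.0448% of all and 0.0683% of those of tested genes. The match GCCACGTCA occurs in both Ube2g2 (at −60) and Ube2j1 (at −77). Its reverse complement contains TGACGTGG, a sequence bound by the ER stress factor ATF6, so the match of the NRF2 core overlaps an ATF6-type site at that place in each promoter. TGACGTGG was found, on either strand, in 0.595% of all promoters, in 0.888% of those of tested genes and in Ube2g2 and Ube2j1 among the 23 tested members with a promoter in the table. The NRF2 core was present at least once in 8 of these 23 (34.8%), namely Ube2d2, Ube2e3, Ube2g2, Ube2j1, Ube2n, Ube2q2, Ube2s and Ube2v1, against 12.1% of all promoters and 14.6% of those of tested genes. TTTGAA, the CHR element known from promoters of cell cycle genes, was found on either strand in Ube2f and Ube2m (8.7% of the 23). It was present in 18.3% of all promoters and 12.0% of those of tested genes. The CRE half-site TGACGT, part of the ATF6-type site, was found on either strand in Ube2d2, Ube2g2, Ube2j1 and Ube2s (17.4% of the 23), against 7.94% of all promoters and 11.5% of those of tested genes. A heat shock element was found in Ube2l3 (4.35% of the 23), against 0.798% of all promoters and 0.488% of those of tested genes. Ube2c, Ube2e1, Ube2o, Ube2v2 and Ube2w were not among the 23. These matches describe letters in the windows and do not show binding. The motifs were chosen after the fold changes were seen, and Ube2g2 and Ube2j1 were shown because they rose. The shares of promoters given here are therefore descriptive, and a part of NRF2 or ATF6 in the changes was not tested.

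The E2 enzymes of cell division and DNA repair were divided. Ube2c starts ubiquitin chains for the anaphase-promoting complex, the ligase that ends mitosis, and Ube2s extends them. Ube2c had 23.5, 25.7 and 21.4 CPM with CSE and 50.1, 47.8 and 48.2 CPM in the control, and every CSE library was far below every control library. It fell by 1.05 ± 0.07 on the log2 scale (edgeR adjusted p = 4.7e-10). Ube2s had 198, 189 and 194 CPM with CSE and 168, 167 and 168 CPM in the control, a rise of 0.21 ± 0.05 (edgeR adjusted p = 4.5e-04) with no overlap of the groups. That call ended under total counts alone (0.02, edgeR adjusted p = 0.68) and upper-quartile scaling (0.07, edgeR adjusted p = 0.15), and over the alternatives the adjusted p lay between 7.9e-06 and 0.68. Ube2t, which with the ligase Fancl monoubiquitinates Fancd2 and Fanci at DNA crosslinks, had 10.0, 11.1 and 10.1 CPM with CSE and 13.3, 14.1 and 13.4 CPM in the control, and fell by 0.38 ± 0.10 (edgeR adjusted p = 0.0023).

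Most calls among the partners of these enzymes were falls. Of 20 genes of the anaphase-promoting complex and its regulators, 11 fell (55.0%, against 37.5% of all tested genes), 4 rose (against 36.3% of all) and 5 did not pass, and their median log2 fold change was −0.34. The mitotic activator Cdc20 averaged 24.4 CPM with CSE and 79.2 CPM in the control (−1.70 ± 0.06, edgeR adjusted p = 1.6e-13), and the inhibitor Fbxo5 averaged 5.43 CPM with CSE and 22.1 CPM in the control (−2.02 ± 0.10, edgeR adjusted p = 7.6e-12). The subunit Cdc23 was at −1.70 ± 0.06 and the checkpoint kinase gene Bub1b at −1.14 ± 0.06 (edgeR adjusted p of 1.9e-13 and 4.0e-11). In the Fanconi list 5 of 6 tested genes (83.3%) fell, among them Fanci (−0.83 ± 0.07), Fanca (−1.69 ± 0.15), Fancd2 (−0.88 ± 0.08) and Fancl (−0.87 ± 0.15), each with an edgeR adjusted p of at most 5.5e-05, that of Fancl. The other one, Wdr48, named after its value was seen, rose by 0.18 ± 0.06 (edgeR adjusted p = 0.012).

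Enzymes that serve many ligases moved in different directions within a family. Ube2d1, Ube2d2 and Ube2d3 encode closely related proteins that work with a wide range of RING ligases. Ube2d3 had 500.0, 514 and 518 CPM with CSE and 365, 331 and 302 CPM in the control, and rose by 0.62 ± 0.06 (edgeR adjusted p = 2.6e-08). Ube2d2 had 119.8, 126 and 127 CPM with CSE and 91.5, 90.6 and 81.5 CPM in the control, a rise of 0.50 ± 0.06 (edgeR adjusted p = 2.6e-07). Both pairs of groups were apart, and the CSE libraries were closer to each other than the control libraries were. Ube2d1 had 9.16, 10.7 and 8.42 CPM with CSE and 11.8, 12.3 and 10.4 CPM in the control, with an overlap of the groups, and its fall of 0.29 ± 0.12 passed narrowly (edgeR adjusted p = 0.037). Over the alternatives its adjusted p ranged from 0.0018 to 0.15, and the call ended with DESeq2 and without CSE replicate 1, CSE replicate 3, control replicate 1 or control replicate 2.

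The Ube2e group, also partners of RING ligases, was similarly split. Ube2e1 had 87.0, 94.5 and 81.8 CPM with CSE and 57.4, 55.8 and 64.7 CPM in the control, a rise of 0.56 ± 0.07 (edgeR adjusted p = 6.9e-07). Ube2e3 had 42.3, 38.4 and 42.5 CPM with CSE and 47.6, 52.4 and 46.6 CPM in the control, and fell by 0.25 ± 0.07 (edgeR adjusted p = 0.0027). For both genes the groups did not overlap. Ube2e2, at 18.6 ± 1.14 CPM with CSE and 17.0 ± 1.08 CPM in the 3 control libraries (SD, n = 3 each), did not pass (0.13 ± 0.09, edgeR adjusted p = 0.19), and its sign turned under total counts alone (−0.06) and upper-quartile scaling (−0.01).

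Chains linked through lysine 63 of ubiquitin, which signal rather than degrade, are built by Ube2n together with an inactive E2 variant. Ube2n had 65.3, 65.2 and 60.2 CPM with CSE and 58.5, 49.1 and 47.6 CPM in the control, a rise of 0.30 ± 0.07 (edgeR adjusted p = 0.0011). The groups were apart, but the call ended under total counts alone (0.11, edgeR adjusted p = 0.17). Ube2v1, the variant that acts in inflammatory signalling, had 48.2, 44.7 and 41.8 CPM with CSE and 34.7, 34.1 and 33.8 CPM in the control, and rose by 0.39 ± 0.07 (edgeR adjusted p = 3.8e-05). RefSeq lists 19 pseudogenes of Ube2v1 and 9 of Ube2n, as well as 4 each of Ube2c and Ube2s, so reads of these genes may have been split or dropped. Ube2v2, the variant of DNA damage tolerance, was at 57.1 ± 2.56 CPM with CSE and 61.0 ± 4.51 CPM in the 3 control libraries (SD, n = 3 each, −0.10 ± 0.06, edgeR adjusted p = 0.18). It passed as lower under total counts alone (−0.28), upper-quartile scaling (−0.23) and without control replicate 3 (−0.16), with edgeR adjusted p of 7.5e-04, 0.0030 and 0.032. Of 14 ligases and cofactors of the RAD6 and lysine 63 pathways 9 rose (64.3%, against 36.3% of all tested genes), Hltf fell (−0.79 ± 0.07) and 4 did not pass. Wac (0.79 ± 0.05), a cofactor of histone H2B ubiquitination, the ligase gene Ubr2 (0.66 ± 0.05) and Traf2 (0.91 ± 0.07) were among the rises, each with an edgeR adjusted p of at most 3.2e-09, as was Traf6 (1.04 ± 0.10, edgeR adjusted p = 2.4e-08), taken after its value was seen.

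E2 enzymes of the ubiquitin-like proteins also differed from each other. Ube2f and Ube2m both carry NEDD8, the activator of cullin ligases, and Ube2f serves cullin 5 in particular. Ube2f had 54.4, 55.7 and 59.6 CPM with CSE and 31.4, 34.3 and 32.1 CPM in the control, a rise of 1.73-fold (0.79 ± 0.06, edgeR adjusted p = 4.0e-09) with the groups well apart. Ube2m had 111, 99.0 and 100.3 CPM with CSE and 92.3, 101.6 and 114 CPM in the control (0.01 ± 0.07, edgeR adjusted p = 0.90). Its control libraries spanned the whole range of the CSE libraries, and the sign changed with upper-quartile scaling (−0.13) and with total counts alone (−0.18, edgeR adjusted p = 0.024). In RefSeq the gene of Ube2m overlaps Chmp2a, and without a stated strand setting reads of the overlap cannot be assigned. Ube2z, which takes ubiquitin from the E1 Uba6, had 78.4, 73.6 and 75.0 CPM with CSE and 58.8, 57.0 and 57.7 CPM in the control, and rose by 0.39 ± 0.05 (edgeR adjusted p = 4.0e-06). Ube2l6, the E2 of the interferon-induced protein ISG15, was at 7.34 ± 0.901 CPM with CSE and 8.03 ± 0.618 CPM in the 3 control libraries (SD, n = 3 each) and did not pass with TMM (−0.13 ± 0.13, edgeR adjusted p = 0.39), but passed as lower under total counts alone (−0.31, edgeR adjusted p = 0.041).

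Of the remaining members, 4 besides Ube2o rose, so that 5 of the 8 tested in this group rose and 3 did not pass. Of all tested genes 36.3% rose. Ube2l3, the E2 of HECT and RBR ligases, had 230.5, 224 and 219.9 CPM with CSE and 168, 155 and 162 CPM in the control, a rise of 0.48 ± 0.05 (edgeR adjusted p = 7.6e-08). Ube2q2 had 52.5, 55.5 and 56.1 CPM with CSE and 40.4, 37.6 and 33.4 CPM in the control, and rose by 0.56 ± 0.07 (edgeR adjusted p = 1.1e-06). In both, every CSE library lay above every control library, although in RefSeq the gene of Ube2l3 overlaps Ydjc. Ube2w, which modifies the amino termini of proteins, had 29.0, 33.9 and 35.3 CPM with CSE and 30.4, 26.0 and 21.7 CPM in the control, with an overlap. Its rise of 0.33 ± 0.10 (edgeR adjusted p = 0.0071) ended as a call under total counts alone, under upper-quartile scaling and without control replicate 3 (0.20, edgeR adjusted p = 0.064). Ube2ql1 had only 37, 42 and 36 counts in the CSE libraries and 20, 23 and 14 counts in the control libraries, and its rise of 0.93 ± 0.30 (edgeR adjusted p = 0.0093) ended as a call without control replicate 3 (0.70, edgeR adjusted p = 0.054).

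Ube2h, Ube2k and Ube2q1 did not pass with TMM. Ube2k, which builds degradative chains, had 98.9, 100.6 and 99.9 CPM with CSE and 103, 98.9 and 98.9 CPM in the control (−0.01 ± 0.05, edgeR adjusted p = 0.88). It passed as lower under total counts alone (−0.20) and upper-quartile scaling (−0.14), with edgeR adjusted p of 0.0015 and 0.012. Ube2h, the E2 of the CTLH ligase complex, had 147, 155 and 157 CPM with CSE and 163, 163 and 163 CPM in the control (−0.09 ± 0.05, edgeR adjusted p = 0.084), with every CSE library below every control library. It too passed as lower under total counts alone (−0.28) and upper-quartile scaling (−0.23), with edgeR adjusted p of 3.5e-05 and 2.8e-04. Ube2q1 had 73.9, 72.5 and 70.4 CPM with CSE and 66.4, 69.9 and 69.4 CPM in the control (0.08 ± 0.05, edgeR adjusted p = 0.20), and its sign turned under total counts alone (−0.11) and upper-quartile scaling (−0.06).

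**Figure D3:**
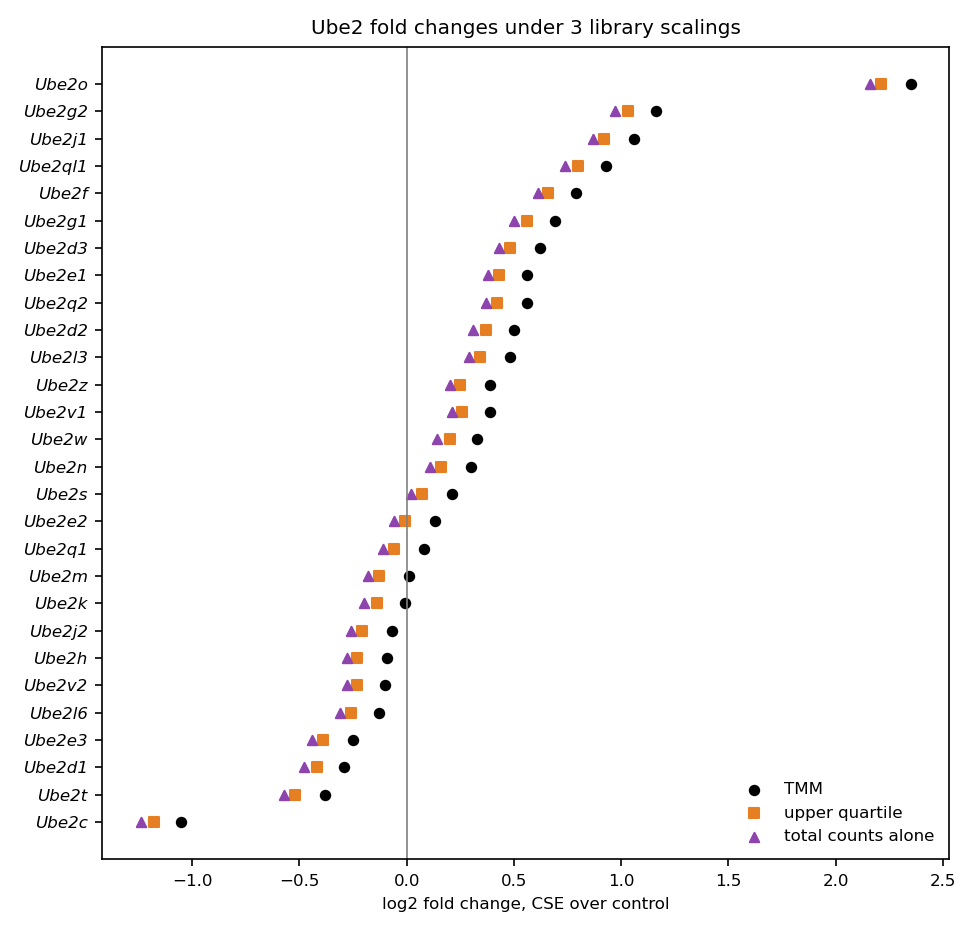
Log2 fold changes of the tested Ube2 genes, all but 1 of the 29, with TMM factors (circles), upper-quartile factors (squares) and total counts alone (triangles), ordered by the TMM value. The other 2 scalings lie left of TMM for each gene, and Ube2e2, Ube2m and Ube2q1 cross 0.

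The spread of values between libraries differed by member. Over the 29 members the coefficient of variation between libraries ranged from 0.858% to 14.4% with CSE (median 4.77%) and from 0.235% to 27.4% in the control (median 6.25%), with Ube2ql1 the most variable in both. Groups of libraries were apart in 22 of the 29 members (75.9%), against 75.8% of all tested genes. CSE libraries were above in 16 members and below in 6, against 37.2% and 38.6% of all tested genes.

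A ratio of counts of related E2 genes within a library does not depend on the scaling between libraries, so 11 pairs were compared in this way. In all 11 the groups were apart, against 74.4% of all pairs of tested genes. The exact 2-sided permutation p was 0.1 for each pair, before and after adjustment over the 11, which is the smallest that 3 libraries against 3 allow, so none could pass 0.05. The log2 ratio of Ube2j1 to Ube2j2 was 1.64, 1.67 and 1.78 with CSE and 0.50, 0.63 and 0.58 in the control, a difference of 1.13. For Ube2c to Ube2s it was −3.08, −2.88 and −3.17 with CSE and −1.74, −1.80 and −1.80 in the control, a difference of −1.26 and the largest of the 11. These pairs thus shifted by over 2-fold within the same libraries.

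Shifts of the other pairs were smaller. The ratio of Ube2d1 to Ube2d3 (mean ± SD, n = 3 each) was −5.76 ± 0.18 with CSE and −4.85 ± 0.10 in the control, a difference of −0.91, whereas Ube2d2 to Ube2d3 differed by −0.12. Ube2e1 to Ube2e3 differed by 0.81 and Ube2e2 to Ube2e3 by 0.38. The ratio of Ube2f to Ube2m averaged −0.87 ± 0.14 with CSE and −1.65 ± 0.15 in the control, a difference of 0.78. Ube2g1 to Ube2g2 averaged −0.35 ± 0.11 with CSE and 0.13 ± 0.25 in the control, so that counts of Ube2g2 exceeded those of Ube2g1 in every CSE library and in 1 control library. Ube2v1 to Ube2v2 differed by 0.48, Ube2q1 to Ube2q2 by −0.49 and Ube2l6 to Ube2l3 by −0.61.

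**Figure D4:**
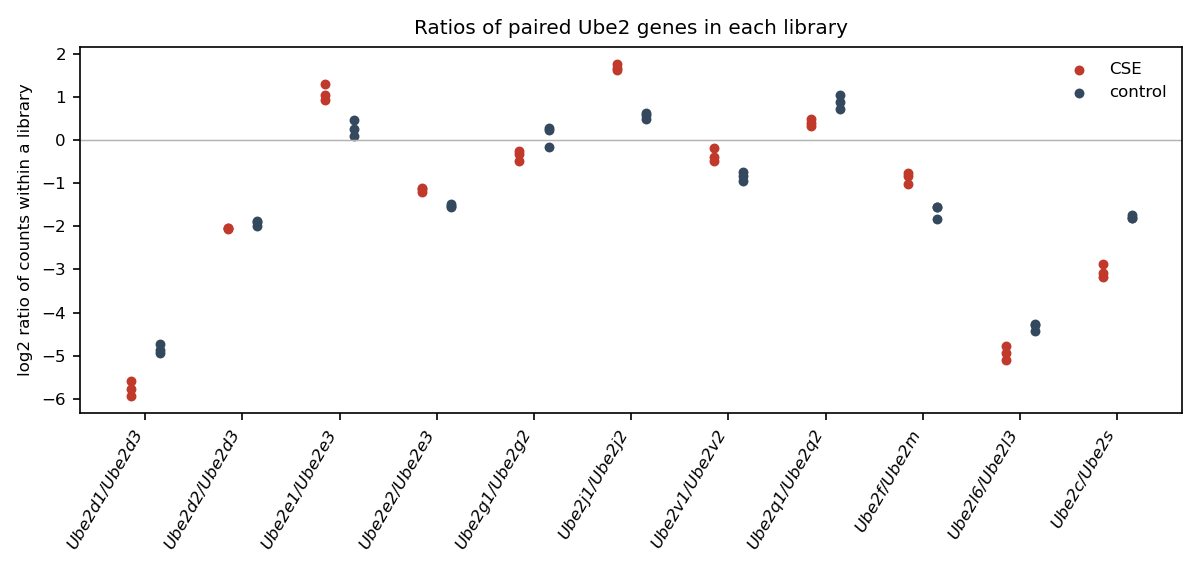
Log2 ratio of the counts of 2 related Ube2 genes within each library for 11 pairs, with CSE libraries left and control libraries right. In each pair the 3 CSE points lie apart from the 3 control points, widest for Ube2c/Ube2s (mean −3.04 with CSE and −1.78 in the control).

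Beyond the Ube2 symbols, a row that RefSeq names Ube2r2 by its gene number, a cullin ligase E2, was at 102 ± 2.87 CPM with CSE and 91.1 ± 3.34 CPM in the 3 control libraries (SD, n = 3 each), higher by 0.17 ± 0.05 (edgeR adjusted p = 0.0064). Its paralog Cdc34 was at 0.24 ± 0.07 (edgeR adjusted p = 0.0070, taken after its value was seen). Of 8 E2 enzymes and E2 variants with other names, 4 rose, 2 fell and 2 did not pass. Of all tested genes 36.3% rose and 37.5% fell. Aktip, an E2-like protein without the catalytic cysteine, averaged 53.2 CPM with CSE and 25.9 CPM in the control (1.04 ± 0.07, edgeR adjusted p = 1.6e-10). Birc6, a giant E2 that inhibits apoptosis, averaged 316 CPM with CSE and 179.9 CPM in the control (0.81 ± 0.06, edgeR adjusted p = 1.8e-09). The autophagy E2 gene Atg3 rose by 0.44 ± 0.05 (edgeR adjusted p = 1.0e-06), and Uevld, an E2 variant, fell by 0.77 ± 0.15 (edgeR adjusted p = 1.8e-04).

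The counts of the lists that follow stand against 36.3% higher and 37.5% lower of all tested genes. Upstream of the E2 enzymes, of 8 tested activating enzymes 3 rose (37.5%), 1 fell (12.5%) and 4 did not pass (median log2 fold change 0.08). Uba2, the catalytic subunit for SUMO, rose by 0.44 ± 0.07 and Uba3, the catalytic subunit for NEDD8, by 0.24 ± 0.05, with edgeR adjusted p of 1.4e-05 and 4.6e-04. The autophagy enzyme gene Atg7 fell by 0.82 ± 0.10 (edgeR adjusted p = 1.2e-06). Uba1, the main ubiquitin E1, is on chromosome X and was listed at 0. Of 13 genes of ubiquitin and the other modifiers that E2 enzymes carry 8 rose (61.5%) and 5 did not pass (median 0.53). The polyubiquitin gene Ubb averaged 929 CPM with CSE and 269 CPM in the control, a rise of 1.78 ± 0.07 (edgeR adjusted p = 3.2e-13). Atg12 and Ufm1 rose by 0.93 ± 0.07 and 0.71 ± 0.06 (edgeR adjusted p of 1.1e-09 and 6.8e-09).

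Among the ligases, 7 of 11 ERAD ligases and cofactors rose (63.6%), 3 fell (27.3%) and 1 did not pass (median 0.27). Rnf103 (1.62 ± 0.06), Rnf185 (1.37 ± 0.07) and Rnf139 (0.75 ± 0.07) rose and Rnf145 fell by 1.09 ± 0.05, each with an edgeR adjusted p of at most 4.6e-08. Syvn1, the partner of Ube2j1, named after its value was seen, rose by 0.25 ± 0.06 (edgeR adjusted p = 6.8e-04). Of 16 tested genes of NEDD8 and cullin ligases 9 rose (56.2%), 5 fell (31.2%) and 2 did not pass (median 0.18). Cul1 (0.76 ± 0.05), Cul3 (0.67 ± 0.06) and the NEDD8 ligase gene Dcun1d5 (0.57 ± 0.05) rose, and Cul7, matched through RefSeq to a row under a gene number, fell by 0.70 ± 0.07, each with an edgeR adjusted p of at most 1.0e-07. Rnf7, the RING partner of Ube2f and cullin 5, named after its value was seen, fell by 0.54 ± 0.10 (edgeR adjusted p = 9.1e-05).

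Among 11 SUMO ligases and proteases 5 were called higher (45.5%) and 3 lower (27.3%), with 3 not called (median 0.24). Ranbp2, a nuclear pore SUMO ligase, rose by 1.15 ± 0.06 and the protease gene Senp6 by 0.68 ± 0.05, while the ligase gene Pias3 fell by 0.93 ± 0.08 and the protease gene Senp3 by 0.54 ± 0.06, each with an edgeR adjusted p of at most 1.1e-07. Of 5 tested ISG15 genes the ligase gene Arih1 (0.65 ± 0.05) and the protease gene Usp18 (0.93 ± 0.23) rose and the ligase gene Trim25 fell by 0.73 ± 0.08 (edgeR adjusted p of 2.0e-09, 0.0018 and 4.2e-07). Of 25 tested further ligases 15 rose, 5 fell and 5 did not pass (median 0.30). Those that rose included Mdm2, the p53 ligase (1.69 ± 0.05), Ube4b, a chain-elongating ligase (1.35 ± 0.05), Arih2, an RBR ligase (1.37 ± 0.05), and Rnf19a, another RBR ligase (1.11 ± 0.05), each with an edgeR adjusted p of at most 1.4e-12. Over all 11 lists 67 of 137 tested genes rose (48.9%) and 37 fell (27.0%). Under total counts alone 43 rose (31.4%) and 55 fell (40.1%), against 28.0% and 47.2% of all tested genes.

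**Figure D5:**
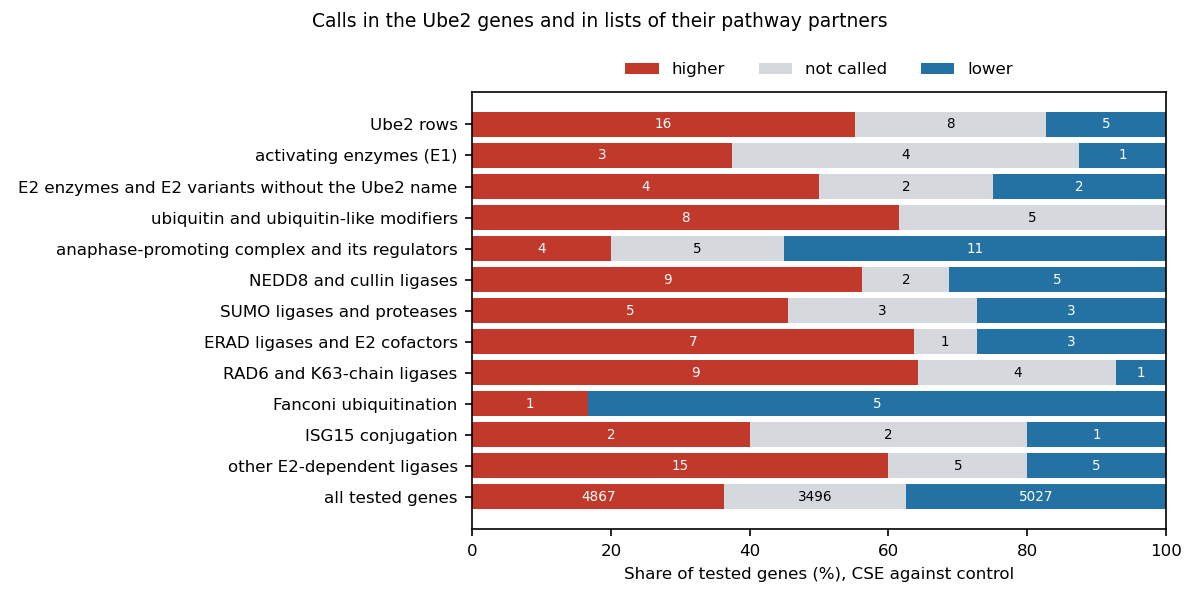
Share of tested genes called higher, not called or called lower with CSE among the Ube2 rows, 11 lists of pathway partners and all 13390 tested genes, with the number of genes printed in each bar segment. Falls take the widest share in the Fanconi list (5 of 6) and rises in the RAD6 and lysine 63 list (9 of 14).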

How the data were processed

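RNA of 3 CSE and 3 control libraries was analysed from the deposited table of raw read counts per gene symbol. HISAT2 2.0.4 and the build Rnor_6.0 are named without a role, per the submitters' processing notes. The tool, strand setting and annotation behind the counts were not given in the sources used here, so reads of overlapping genes and near-identical copies may be misassigned. Genes were filtered with filterByExpr (13390 of 21252 rows with any count kept), scaled with TMM factors and compared by the quasi-likelihood test of edgeR 4.0.16 (R 4.3.3). P-values were adjusted by the Benjamini-Hochberg method over all 13390 genes and called at 0.05. Standard errors were taken as the absolute log2 fold change over the root of the F statistic. Paralog ratios used counts plus 0.5 and exact 2-sided permutation tests over 11 pairs. Replicates differed by a chi-square per degree of freedom of 3.24 to 5.74 within groups, above sampling noise, so each library counted as 1 replicate. The fitting steps were tested on simulated data, in which fewer genes changed than were called here. Of changes of 1.25-fold 25 of 49 were recovered, and of 2-fold changes 45 of 50, with 7 false calls. DESeq2 1.42.0 and limma 3.58.1 served as alternatives.

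The members and the lists of partners were chosen with earlier results of these data known. As the rule set, values by library are given for members with at least a 2-fold change and the member of smallest adjusted p in each role. The rule also named the paired paralogs, but of these Ube2e2, Ube2l6 and Ube2v2 are given as mean and SD. Values by library were added for Ube2h, Ube2k, Ube2n, Ube2t, Ube2w, Ube2z and Ube2ql1. From each list up to 4 genes of smallest adjusted p are named, and others are marked. The values of 1 tested member and of some partners are not reported here, though counts over lists include them. Promoter sequences and gene overlaps come from RefSeq for GRCr8, a different build from Rnor_6.0. Motifs were chosen after the fold changes were seen.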

Additional observations from a re-analysis of the deposited data

How the results depend on the processing

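Directions held for all 21 called members in the 13 alternatives, and 12 of 16 rises and 3 of 5 falls also kept their call in each. The count of Ube2 rises was 13 to 16. The count of falls, 5 with TMM, was 3 with DESeq2 size factors, 3 with the DESeq2 test, 9 with upper-quartile scaling and 11 with total counts alone, and ranged from 3 to 6 when 1 library was left out. The Ube2 median was 0.11 with total counts alone and 0.16 with upper-quartile scaling, and ranged from 0.20 to 0.39 when 1 library was left out. List members called higher numbered 43 with total counts alone, against 67. Among members without a call the sign turned for Ube2e2 (−0.06 with total counts alone, −0.01 with upper-quartile scaling), Ube2q1 (−0.11 and −0.06 in the same scalings), Ube2m (−0.18 and −0.13, and −0.06 to 0.08 when 1 library was left out, turning without CSE replicate 1, control replicate 1 or control replicate 2) and Ube2k (0.01 with DESeq2 size factors and with the DESeq2 test, and −0.03 to 0.01 when 1 library was left out, turning without CSE replicate 1 or control replicate 1). Apart from the shift of all genes with the scaling, the cause was not tested. The share of higher genes among the called was 49.2% with TMM and 37.2% with total counts alone for all genes, and 76.2% and 54.2% for Ube2 members. The replicate block left 16 rises and 5 falls and a Ube2 median of 0.30, with 4821 higher and 4935 lower genes in all. Same-numbered libraries did not deviate together (correlations of 0.020, −0.027 and 0.001), and differently numbered ones lay between −0.078 and 0.086. Libraries that share a source but differ only by technical spread could give such values too. Whether a number marks a shared animal, culture or day thus cannot be told. Every paralog ratio kept its direction with a pseudocount of 1 and when 1 library was left out. Depth limits Ube2ql1 most, with 14 to 42 counts a library.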
